A study of Drosophila melanogaster with 33 samples.

Results

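In primary spermatocytes of Drosophila melanogaster, 2 sets of testis-specific transcription factors turn on the genes of meiosis and sperm formation, and the 10 genes that encode them were followed here in larval brains and transplanted brain tumours of l(3)mbt mutants. The tMAC genes, for testis meiotic arrest complex, are topi, tomb, achi, vis, aly and comr. The testis TAF genes are mia, can, nht and sa. Each gene was read from a probe set annotated to no other gene, and where a gene had several, from the brightest on average. All 10 had such a probe set, among 11982 genes with one, and each had exactly 1. Of the 10 genes, 7 passed the low-value filter, a log2 expression value over 4 on at least 3 of the 33 arrays, as did 8264 genes in all. The other 3, aly, comr and sa, stayed below it.

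In the testis tMAC is a relative of dREAM, the Myb and MuvB complex of somatic cells, and several of its subunits are testis copies of dREAM subunits. The testis TAFs are copies of the TAF subunits of TFIID, the general factor that recruits RNA polymerase II to promoters. Loss of either set stops spermatocytes before the meiotic divisions and leaves spermatid differentiation genes silent. The l(3)mbt protein, which carries MBT repeats, is a chromatin repressor that associates with dREAM, and its loss lets larval brains overgrow and express germline genes.

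The arrays measured total RNA. Brains homozygous for the allele ts1 were raised at 29 °C (6 arrays, 3 at each of the experimentation sites EMBL and IRB) or at 17 °C (3 arrays, EMBL). Transheterozygous ts1/E2 brains came from 29 °C (3 arrays, IRB), and E2 homozygous brains from 29 °C and 17 °C (3 arrays each, IRB). Tumours of ts1 brains, passed through adult hosts, were taken at culture rounds 1, 5 and 10 (T1, T5 and T10, 3 arrays each, IRB). The wild type, WT, was w1118 (6 arrays, 3 at each site), and its labels state no temperature. The purpose of the design, as the series describes it, was a genome-wide profile of mutant brains at the restrictive temperature and of the cultured tumours.

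Values are log2 expression, and the lower quartile of all probe sets lay between 2.24 and 2.31 on each array, so values near 2.3 were taken as background and differences from such values have no exact size. The means of WT were equal at both sites for every probe set, to within 6.7e-09, so the deposited values had been centred on WT within each site. The lowest level of a probe set can therefore differ between sites, which the low-value filter does not allow for. One example is Tektin-C, a gene described below. It read 3.33 to 3.35 in ts1 brains at EMBL and 1.01 to 1.05 in mutant brains at IRB. Every tested difference below was taken between arrays of 1 site, or between 2 such differences, in 1 limma fit of all arrays, with Benjamini-Hochberg adjusted p taken across the 8264 tested genes. Calls, written as rose or fell, needed an adjusted p under 0.05 together with a difference of 1 or more on the log2 scale. Each p-value reflects array-to-array spread, which may be technical, since the labels do not say whether replicates were separate collections of animals, and in whole tissue fewer cells and less RNA per cell cannot be told apart. All 7 mutant and tumour groups at IRB were set against the same 3 WT arrays, and ts1 brains at both temperatures at EMBL against the other 3.

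Some arrays stood apart. The signal of eIF4a at the 5′ end lay below that at its 3′ end by 11.96 (log2) on E2 29 °C replicate 1, by 5.25 on ts1 17 °C replicate 2 and by 4.94 on ts1 29 °C replicate 3, while on the other 30 arrays this 5′ minus 3′ difference was between -2.38 and -1.1. An earlier look at these data set apart these 3 arrays with E2 17 °C replicate 2 and ts1 29 °C replicate 6, and results without these 5 arrays are given where they change a call. Centring each array on its own median moved the split of all called genes: the share that was higher became 20.8% in place of 35.4% in ts1 brains at 29 °C at IRB, 38.7% in place of 56.9% in ts1/E2, 19.5% in place of 43.9% in E2 at 29 °C, 29.3% in place of 47.1% in T1 and 37.5% in place of 48.6% in T5. For the site difference in ts1 brains it became 17.8% in place of 29.6%, for T10 minus T1 51.8% in place of 29.3%, and for ts1/E2 minus E2 100% in place of 77.8%. That centring shifted the median gene by up to -0.73, in E2 brains at 29 °C. All 12 larval brain markers on the array averaged over 4 in every brain group and in T1, and 9 of the 12 did so in T5 and T10. Their summed log2 level was 90.7 to 106.7 over the 9 tumour arrays and 112.9 to 122.6 in mutant brains, against 121.5 to 125.3 in WT. In the tumours 6 of the 12 fell in T1, 6 in T5 and 7 in T10, against 14.3%, 13.7% and 13.5% of all tested genes. Among them in each were the glial genes alrm and repo and the synaptic genes Syn and nSyb. In brains, nSyb, repo and pros fell in ts1 at 29 °C at EMBL, dpn, ase and mira in ts1/E2, dpn and ase in E2 at 29 °C, nSyb in ts1 at 17 °C and ase and wor in E2 at 17 °C, and of these the ase calls in ts1/E2 and in E2 at 17 °C held when any 1 array was left out. Of all tested genes, 3.07%, 2.53%, 5.08%, 0.629% and 2.29% fell in these brain groups, in the same order. In ts1 brains at 29 °C at IRB wor rose, as it did in T5, and the ts1 call was lost on leaving out 5 of the 6 arrays singly. The part of these shifts in the levels of the 10 genes was not tested. The l(3)mbt transcript was present throughout, between 5.66 and 9.39, and its probe set does not tell mutant from normal transcripts.

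**Figure D1:**
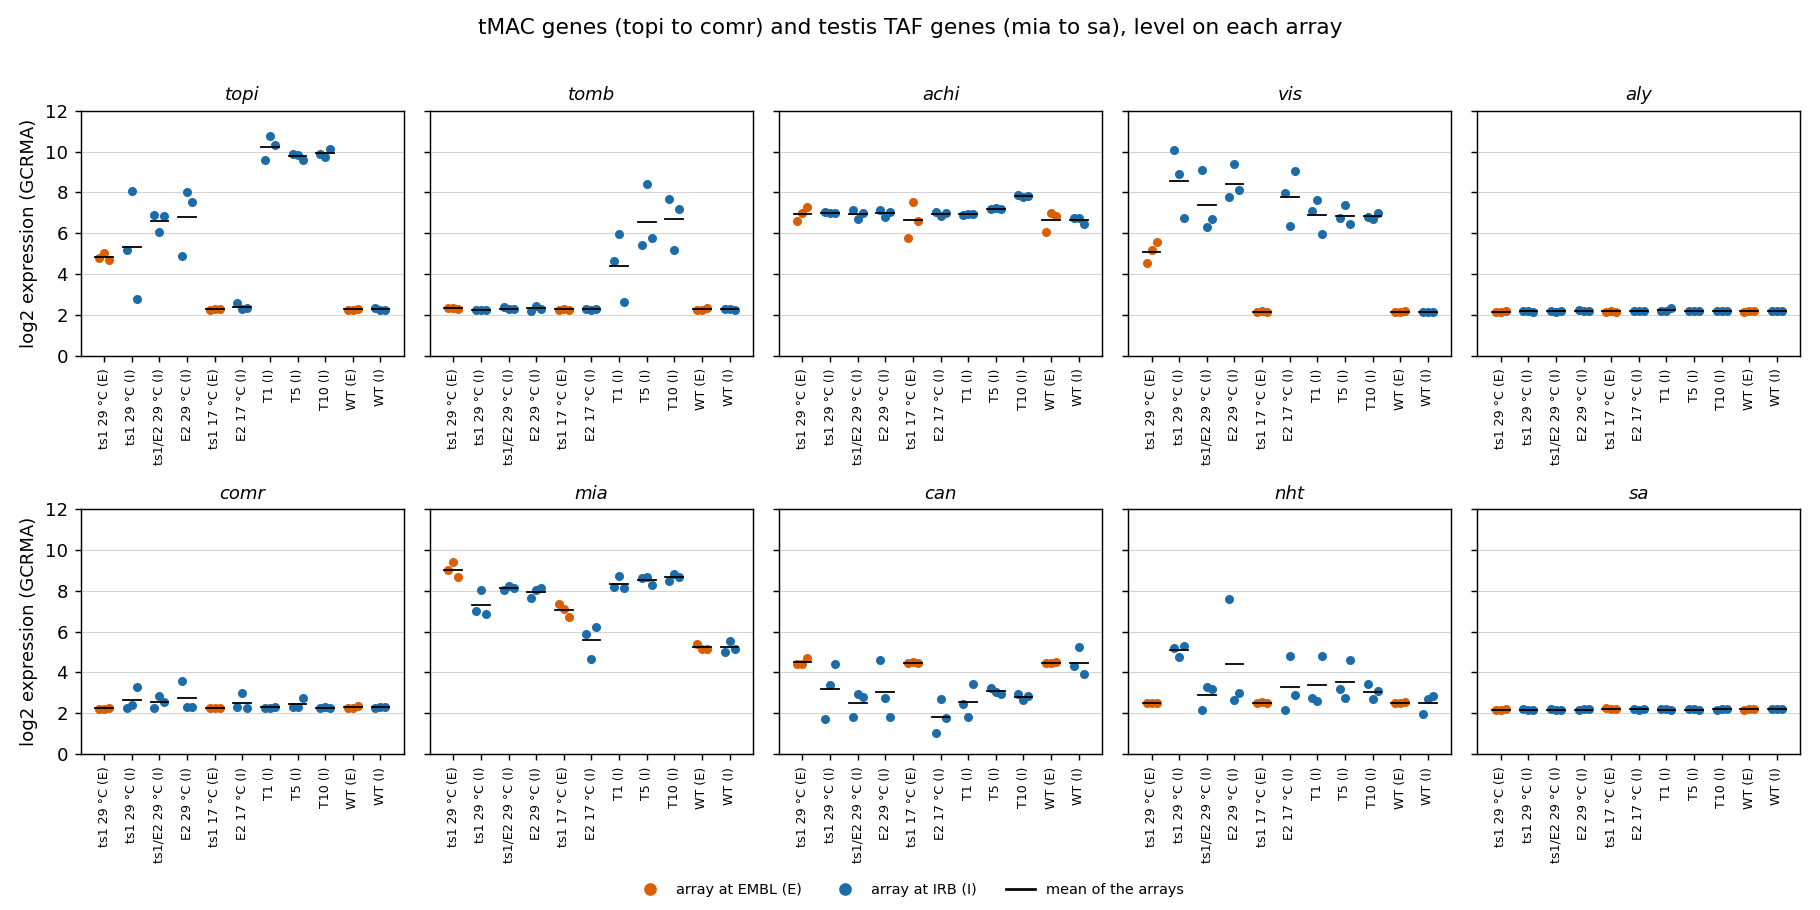
Level of each of the 10 genes on each array (vertical axis, log2 expression), by group and site (horizontal axis, E for EMBL and I for IRB); points are arrays and bars are means of 3 arrays. topi, vis and mia sit above WT in all brains raised at 29 °C and in the tumours, tomb only in the tumours, and aly and sa lie near 2.2 on all 33 arrays.

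Against WT, the genes that rose were topi, vis and mia in every mutant brain group at 29 °C and in all tumours, joined by tomb in the tumours and by achi in T10. Of the 7 tested genes, 3 rose in ts1 brains at 29 °C at EMBL, where 3.69% of all tested genes did, and 3 rose at IRB, where 3.11% did. In ts1/E2 brains 3 rose, against 3.34% of all tested genes, and 1 fell, against 2.53%. In E2 brains at 29 °C 3 rose, against 3.98%. In ts1 brains at 17 °C 1 rose, against 0.557%, and in E2 brains at 17 °C 1 rose, against 1.98%, and 1 fell, against 2.29%. The tumours changed far more of the transcriptome: in T1 4 of the 7 rose, against 12.7%, and 1 fell, against 14.3%. In T5 4 rose, against 12.9%, and in T10 5 rose, against 12.3%, and 1 fell, against 13.5%. The genes topi, tomb, vis and nht averaged below 4 in WT and passed the low-value filter through mutant or tumour arrays, so these counts describe the genes and lend no weight to a shift of the whole set.

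**Figure D2:**
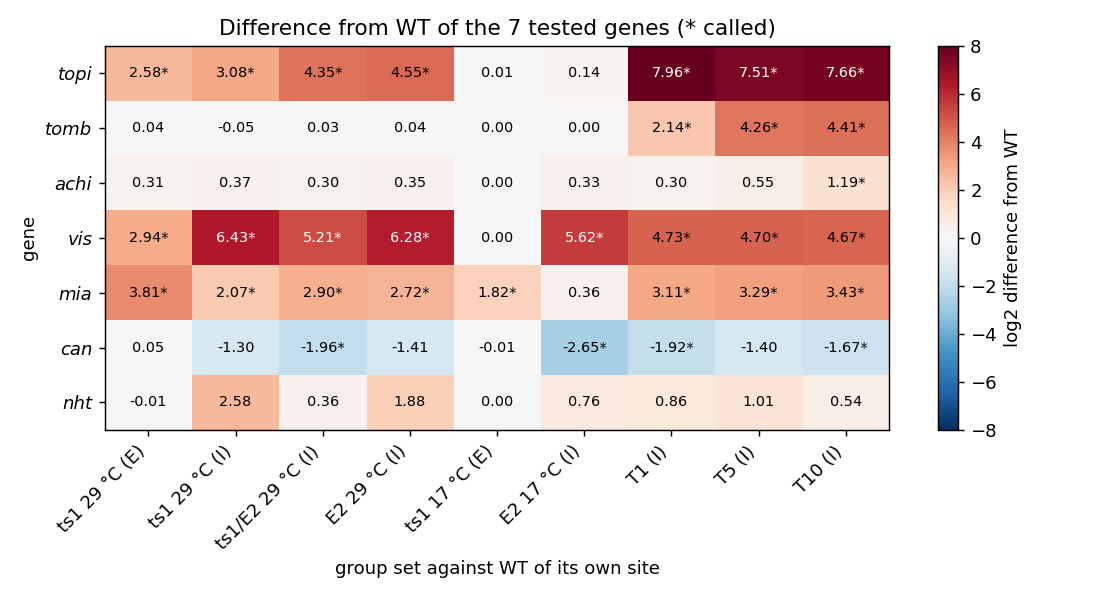
Difference from WT of the same site (colour and printed number, log2) for the 7 tested genes (rows) in each mutant and tumour group (columns); asterisks mark called differences. The topi row is near 0 at 17 °C, reaches 2.58 to 4.55 in brains at 29 °C and 7.51 to 7.96 in tumours, and the vis row is at 5.62 in E2 brains raised at 17 °C.

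The topi gene encodes a zinc finger subunit of tMAC and had the largest fitted differences of the 10 genes in the tumours, while in each brain group those of vis or mia were larger. In ts1 brains at 29 °C topi read 4.79, 5.04 and 4.71 at EMBL, and 5.18, 8.08 and 2.76 at IRB. It read 6.91, 6.08 and 6.86 in ts1/E2 brains, and 4.89, 8.03 and 7.52 in E2 brains at 29 °C. Each of these 12 arrays lay above every WT array, where topi was between 2.23 and 2.32 with a median of 2.25, although ts1 29 °C replicate 6 at IRB came close to WT. At 17 °C topi stayed at background, with 2.25, 2.28 and 2.27 in ts1 brains and 2.57, 2.30 and 2.32 in E2 brains. In tumours it read 9.59, 10.78 and 10.31 in T1, 9.89, 9.84 and 9.58 in T5, and 9.90, 9.74 and 10.12 in T10. Every tumour array was above every brain array.

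Against WT, topi rose by 2.58 ± 0.77 (SE, n = 3 arrays a group, adjusted p = 0.0338) in ts1 brains at 29 °C at EMBL and by 3.08 ± 0.77 (adjusted p = 0.0112) at IRB. The EMBL call was lost on leaving out any 1 of its 6 arrays (2.49 to 2.65, adjusted p 0.0717 to 0.0963), without the low-value filter (adjusted p = 0.0503) and with each array centred on its median (adjusted p = 0.119). Over all alternatives its adjusted p ran from 1.73e-07 to 0.119, and in a fit of EMBL arrays alone, where the spread of topi is small, it was 7.32e-06. The IRB call was lost without replicate 5 (1.71, adjusted p = 0.0649) and with centred arrays (2.60, adjusted p = 0.0535), in a range of 1.64e-08 to 0.0649. The rise was 4.35 ± 0.77 in ts1/E2 brains (adjusted p = 0.000429) and 4.55 ± 0.77 in E2 brains at 29 °C (adjusted p = 0.000261), and it kept its call in both under every alternative run. In tumours topi rose by 7.96 ± 0.77 in T1, 7.51 ± 0.77 in T5 and 7.66 ± 0.77 in T10, with adjusted p at or below 2.22e-08.

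Temperature within an allele was compared next. In E2 brains topi was higher at 29 °C than at 17 °C by 4.41 ± 0.77 (adjusted p = 0.000461). In ts1 brains the difference was 2.58 ± 0.77 and missed the threshold (adjusted p = 0.0771), while the 3 arrays at 29 °C lay between 4.71 and 5.04 and the 3 at 17 °C between 2.25 and 2.28. This difference was called with the replicate number as a block (adjusted p = 0.00469) and in a fit of EMBL arrays alone (adjusted p = 1.03e-05), in a range over all alternatives of 6.71e-06 to 0.281. The temperature effects of the alleles differed by -1.84 ± 1.09 (ts1 minus E2, adjusted p = 0.753), which was called with array weights alone (-2.59, adjusted p = 0.00774, in a range up to 0.965). For this contrast of alleles the ts1 arrays were run at EMBL and the E2 arrays at IRB, so allele and site cannot be told apart. With temperature, 2 of the 7 tested genes rose in ts1 brains, vis and mia, against 1.74% of all tested genes, and 2 in E2 brains, topi and mia, against 3.33%. For none of the 7 were the temperature effects called different between alleles, where 0.375% of all tested genes were; the unadjusted p was under 0.05 for vis alone (2.28 ± 0.99, unadjusted p = 0.0306).

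Among brains at 29 °C, topi in ts1/E2 differed from E2 by -0.19 ± 0.77 and from ts1 at IRB by 1.28 ± 0.77, neither of them called (adjusted p = 0.941 and 0.391). Without ts1 29 °C replicate 5 the difference from ts1 was 2.65 and called (adjusted p = 0.00605), in a range of 0.00365 to 1.0. In these comparisons 0 of the 7 genes were called, against 0.109% of all tested genes for ts1/E2 minus E2 and 6.40% for ts1/E2 minus ts1, and at an unadjusted p under 0.05 limma gave 0 and 2 of the 7 (mia and nht). T1 tumours set against ts1 brains at 29 °C from the same site, by contrast, had 3 of the 7 higher, against 15.5% of all tested genes. In that comparison topi rose by 4.88 ± 0.77 (adjusted p = 2.71e-05). Between T10 and T1 topi differed by -0.30 ± 0.77 (adjusted p = 0.974), and in this comparison 1 of the 7, tomb, rose, against 1.73% of all tested genes.

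The tomb gene encodes a CXC-domain DNA-binding protein, the testis copy of the dREAM subunit mip120, and was near background in all larval brains. On the 24 brain arrays, WT included, it lay between 2.21 and 2.45. In tumours it read 4.64, 5.95 and 2.63 in T1, 5.40, 8.41 and 5.78 in T5, and 7.66, 5.17 and 7.20 in T10. All 9 tumour arrays were above all brain arrays, T1 replicate 3 narrowly so. Against WT it rose by 2.14 ± 0.64 in T1 (adjusted p = 0.0107), by 4.26 ± 0.64 in T5 (adjusted p = 7.84e-06) and by 4.41 ± 0.64 in T10 (adjusted p = 5.00e-06). Only the T1 call depended on 1 array: without T1 replicate 2 the difference was 1.36 (adjusted p = 0.113), and with centred arrays it was 1.73 (adjusted p = 0.058), in a range of 0.000405 to 0.113.

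Against ts1 brains at 29 °C, tomb in T1 was higher by 2.18 ± 0.64 (adjusted p = 0.00992), and without T1 replicate 2 by 1.41 (adjusted p = 0.105, range over alternatives 0.000462 to 0.105). It was also the gene that rose in T10 relative to T1, by 2.27 ± 0.64 (adjusted p = 0.0287), although the arrays of T10 and T1 overlapped. That call was lost on leaving out 1 of 4 of the 6 arrays, T10 replicates 1 and 3 and T1 replicates 1 and 3, and the difference without T1 replicate 3 was 1.38. It was also lost with array weights, in a fit of IRB arrays alone and with the replicate number as a block (adjusted p = 0.0718), in a range of 0.0029 to 0.248 over all alternatives.

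The neighbours achi and vis, adjacent on chromosome arm 2R with 0 annotated genes between them, encode homeodomain proteins of the TGIF family that arose by duplication and are nearly identical in sequence. Their probe sets gave different patterns. In mutants, vis read 4.54, 5.19 and 5.55 in ts1 brains at 29 °C at EMBL and 10.08, 8.90 and 6.77 at IRB. It read 9.09, 6.30 and 6.72 in ts1/E2 brains, and 7.78, 9.39 and 8.14 in E2 brains at 29 °C. In E2 brains raised at 17 °C vis was as high, at 7.96, 6.34 and 9.04, whereas in ts1 brains at 17 °C it read 2.14, 2.18 and 2.15. Its tumour values were 7.10, 7.61 and 5.96 in T1, 6.77, 7.37 and 6.43 in T5, and 6.81, 6.71 and 6.97 in T10. WT lay between 2.12 and 2.19 with a median of 2.16, so the groups split into WT and ts1 at 17 °C, both at background, and all others, whose lowest array was at 4.54.

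Against WT, vis rose by 2.94 ± 0.70 in ts1 brains at 29 °C at EMBL (adjusted p = 0.00789) and by 6.43 ± 0.70 at IRB (adjusted p = 6.54e-07). The rise was 5.21 ± 0.70 in ts1/E2 brains, 6.28 ± 0.70 in E2 brains at 29 °C and 5.62 ± 0.70 in E2 brains at 17 °C, with adjusted p at or below 1.18e-05. It was 4.73 ± 0.70, 4.70 ± 0.70 and 4.67 ± 0.70 in T1, T5 and T10, with adjusted p at or below 8.74e-06. All 8 calls held when any 1 array was left out. With temperature, vis rose in ts1 brains by 2.94 ± 0.70 (29 °C minus 17 °C, adjusted p = 0.0185), a call lost on leaving out ts1 29 °C replicate 2 or 3 or ts1 17 °C replicate 2 or 3, in a range of 0.000223 to 0.107 over all alternatives. In E2 brains the difference was 0.65 ± 0.70 (adjusted p = 0.588).

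The difference from WT of E2 brains at 17 °C exceeded that of ts1 brains at 17 °C by 5.62 ± 0.99 for vis (adjusted p = 0.00274), a comparison chosen after the data were seen, in which vis alone of the 7 was called higher, against 0.762% of all tested genes. With an additive site term it was 3.88 and not called (adjusted p = 0.117), the highest p in a range that began at 8.88e-07. The E2 arrays were run at IRB and the ts1 arrays at EMBL, so allele and site cannot be told apart at 17 °C. For vis the sites themselves differed: its rise in ts1 brains at 29 °C was larger at IRB than at EMBL by 3.49 ± 0.99 (adjusted p = 0.0477). For 1 of the 7 this difference was called higher, against 1.09% of all tested genes, and for 1, mia, lower, against 2.59%. The vis call was lost on leaving out 1 of 9 of the 12 arrays (2.74 to 3.54), and with centred arrays (3.03, adjusted p = 0.166), the highest p in a range that began at 1.55e-06.

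The achi probe set lay between 5.77 and 7.86 on all arrays, above the lower quartile of all probe sets. In ts1 brains at 17 °C achi read 5.77, 7.54 and 6.62, the 7.54 on replicate 2. That array and ts1 29 °C replicate 3, at 7.31, had a low eIF4a signal at the 5′ end. In T10 achi read 7.86, 7.79 and 7.84, against 6.75, 6.73 and 6.44 in WT at IRB and 6.07 to 7.0 in WT at EMBL. T10 was thus the 1 group whose arrays all lay above those of every other group, and there achi rose by 1.19 ± 0.28 (adjusted p = 0.00179). In the other groups its difference from WT was between 0.00 and 0.55, with no call. Between T10 and T1 it was 0.89 ± 0.28 (adjusted p = 0.0619).

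A further probe set, annotated to achi and vis together, followed neither. It read 9.35, 9.38 and 9.95 in ts1 brains at 29 °C at EMBL and 7.67, 8.89 and 6.97 at IRB, against 5.95 to 6.94 in WT. In E2 brains at 17 °C, where the vis probe set was high, it read 7.60, 6.82 and 6.45 and differed from WT by 0.36 ± 0.39 (adjusted p = 0.704 over 11060 probe sets). Where the vis probe set was at background, in ts1 brains at 17 °C, it read 7.47, 8.41 and 7.70 and differed by 1.26 ± 0.39 (adjusted p = 0.114). In E2 brains at 29 °C, where the vis probe set rose by 6.28, it differed by 1.02 ± 0.39 and was not called (adjusted p = 0.0772). Its site difference in ts1 brains, IRB minus EMBL, was -1.72 ± 0.55 (adjusted p = 0.0757), opposite in sign to that of vis. The 2 probe sets thus gave different orders of the groups, and the values above are those of the vis probe set alone.

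**Figure D3:**
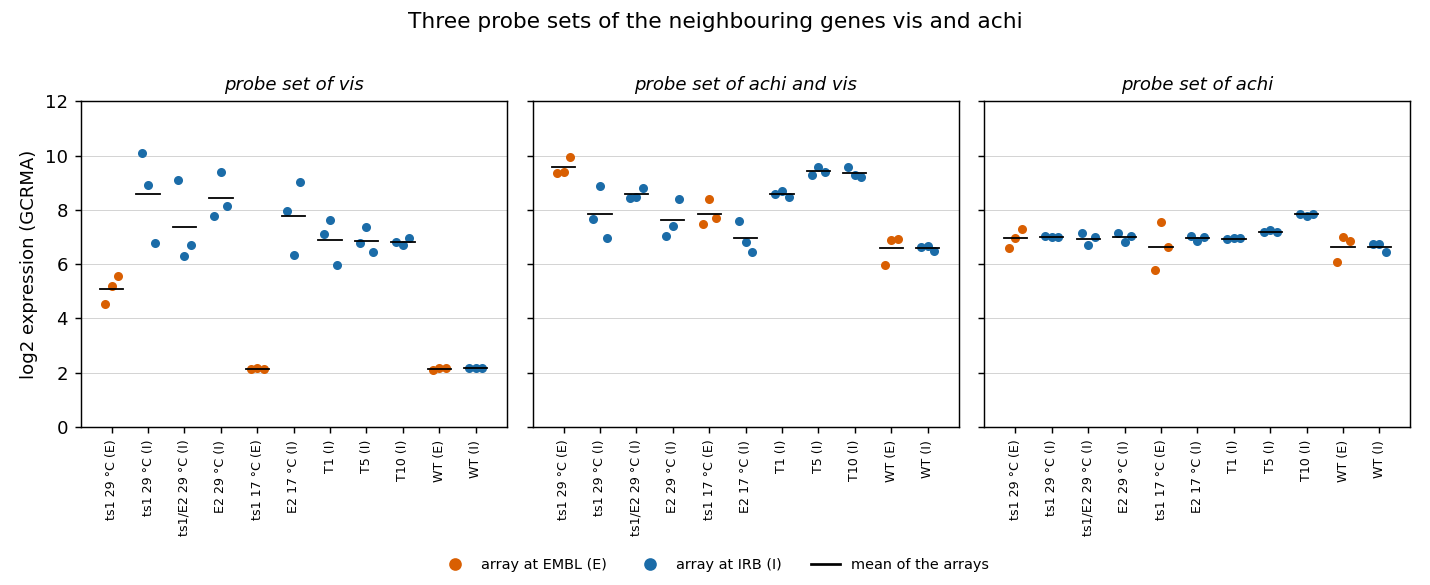
Level (log2 expression) of the probe sets of vis, of achi and vis together, and of achi on each array, by group and site; points are arrays, bars are means of 3 arrays. In E2 brains at 17 °C the vis probe set lies between 6.34 and 9.04 while the shared probe set, at 6.45 to 7.60, overlaps WT at 5.95 to 6.94.

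No signal was measured for aly and little for comr. The aly gene encodes the testis copy of mip130, a dREAM subunit of the LIN-9 family, and comr an acidic nuclear protein that binds chromatin with aly. Over the 33 arrays aly lay between 2.15 and 2.33. The comr values were between 2.23 and 2.34 on the 9 EMBL arrays and between 2.26 and 3.59 on the 24 IRB arrays, the highest being E2 29 °C replicate 1 and the next ts1 29 °C replicate 6, at 3.28. Fitted without the low-value filter, aly differed from WT by -0.02 to 0.05 and comr by -0.04 to 0.44, with no call. A probe set at background can also be one that binds its transcript poorly, which these data cannot tell from an absent transcript.

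Of the testis TAFs, mia, the testis copy of Taf6, changed in the most groups. In ts1 brains at 29 °C it read 9.05, 9.41 and 8.68 at EMBL and 7.02, 8.04 and 6.87 at IRB. It read 8.04, 8.22 and 8.14 in ts1/E2 brains, and 7.66, 8.07 and 8.15 in E2 brains at 29 °C. WT lay between 5.02 and 5.53 with a median of 5.16, below all 12 of these arrays. That is above the lower quartile of all probe sets, but with values centred on WT within each site its distance from background is not known. At 17 °C mia read 7.35, 7.11 and 6.72 in ts1 brains, all above WT, and 5.89, 4.67 and 6.25 in E2 brains, which overlapped WT. In tumours it read 8.18, 8.71 and 8.15 in T1, 8.61, 8.68 and 8.27 in T5, and 8.49, 8.83 and 8.69 in T10.

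Against WT, mia rose by 3.81 ± 0.32 in ts1 brains at 29 °C at EMBL (adjusted p = 4.98e-09) and by 2.07 ± 0.32 at IRB (adjusted p = 0.0001). It rose by 2.90 ± 0.32 in ts1/E2 brains (adjusted p = 4.77e-07) and by 2.72 ± 0.32 in E2 brains at 29 °C (adjusted p = 1.35e-06). In T1, T5 and T10 the rises were 3.11 ± 0.32, 3.29 ± 0.32 and 3.43 ± 0.32, with adjusted p at or below 2.76e-08. These 7 calls held under every alternative run. Alone among the 7 tested genes, mia also rose in ts1 brains at 17 °C, by 1.82 ± 0.32 (adjusted p = 0.00191), whereas the difference in E2 brains at 17 °C was 0.36 ± 0.32 (adjusted p = 0.614). The ts1 call at 17 °C was lost with an additive site term (1.39, adjusted p = 0.0842) and with centred arrays (1.90, adjusted p = 0.0602), in a range that began at 8.52e-05. The difference of these 2 differences, E2 minus ts1, was -1.46 ± 0.45 and not called (adjusted p = 0.116).

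With temperature mia rose in both alleles, by 1.98 ± 0.32 in ts1 brains (29 °C minus 17 °C, adjusted p = 0.000302) and by 2.36 ± 0.32 in E2 brains (adjusted p = 1.78e-05), and the arrays at 29 °C lay above those at 17 °C in each. In ts1 brains at 29 °C its rise was smaller at IRB than at EMBL, the difference being -1.73 ± 0.45 (adjusted p = 0.0283). That call was lost on leaving out 1 of 7 of the 12 arrays (-1.73 to -1.51) and with centred arrays, in a range of 1.71e-06 to 0.0998 over all alternatives. T1 tumours exceeded ts1 brains at 29 °C in mia by 1.04 ± 0.32 (adjusted p = 0.0138). Without T1 replicate 2 or without ts1 29 °C replicate 4 or 6 this was between 0.82 and 0.89 and not called, and with an additive site term it was 0.60 (adjusted p = 0.249, the highest of a range that began at 0.000867).

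The can gene encodes the testis copy of Taf5, a WD-repeat protein, and was the 1 gene of the set that fell. It read 1.81, 2.93 and 2.82 in ts1/E2 brains, 1.01, 2.72 and 1.77 in E2 brains at 17 °C, and 4.61, 2.77 and 1.82 in E2 brains at 29 °C. In T1 it read 2.47, 1.80 and 3.44, in T5 3.25, 3.06 and 2.94, and in T10 2.96, 2.63 and 2.86. The WT arrays at IRB read 4.31, 5.23 and 3.91, and all 9 EMBL arrays, mutant or WT, lay between 4.44 and 4.72. Of the mutant and tumour values at IRB, those of ts1/E2, E2 at 17 °C and the tumours lay below all WT arrays, and those of E2 at 29 °C, and of ts1 at 29 °C at IRB with 1.74, 3.38 and 4.41, overlapped WT.

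Against WT, can fell by 1.96 ± 0.59 in ts1/E2 brains (adjusted p = 0.041). It fell by 2.65 ± 0.59 in E2 brains at 17 °C (adjusted p = 0.00778). In tumours it fell by 1.92 ± 0.59 in T1 (adjusted p = 0.0129), and it fell by 1.67 ± 0.59 in T10 (adjusted p = 0.0314). Each of these calls was lost on leaving out some 1 array. For ts1/E2 and for T10 that held for 5 of the 6 arrays (adjusted p up to 0.211 and 0.155). For E2 at 17 °C it held for E2 replicate 1 (-2.24, adjusted p = 0.0594) and WT replicate 2 (-2.27, adjusted p = 0.0672), and for T1 it held for T1 replicate 2 (-1.53, adjusted p = 0.0797) and WT replicate 2 (-1.54, adjusted p = 0.0807). Over all alternatives the lowest adjusted p of these 4 results were 0.000101, 1.33e-06, 0.000276 and 1.39e-05. In T5 the difference was -1.40 ± 0.59 (adjusted p = 0.0704), in ts1 brains at 29 °C at IRB -1.30 ± 0.59 (adjusted p = 0.168) and in E2 brains at 29 °C -1.41 ± 0.59 (adjusted p = 0.101). These 3 were called with array weights, with centred arrays and without the 5 arrays that stood apart, with adjusted p at or below 0.0174, and over all alternatives their p reached 0.27, 0.632 and 0.335. The E2 difference was also called without E2 29 °C replicate 1 (-2.18, adjusted p = 0.0211). At EMBL, ts1 brains differed from WT by 0.05 ± 0.59 at 29 °C and by -0.01 ± 0.59 at 17 °C, so the lower values were measured at 1 site, where values as low as 1.01 occurred below the array's lower quartile. The EMBL range of can, 4.44 to 4.72, was narrow, like that of aly there, 2.15 to 2.21. Since values had been centred on WT within each site, the EMBL values of can cannot be told from background moved to the WT mean. All 9 EMBL arrays were among the 13 on which can exceeded 4, so it passed the filter largely through them. Whether can could fall at EMBL was not tested.

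The nht gene encodes the testis copy of Taf4. It read 5.22, 4.78 and 5.28 in ts1 brains at 29 °C at IRB, above 1.97, 2.72 and 2.86 in WT there, but between 2.50 and 2.55 on all 9 EMBL arrays. The IRB difference was 2.58 ± 0.84 (adjusted p = 0.051) and was called with centred arrays (2.10, adjusted p = 0.0388), with array weights and without the 5 arrays that stood apart, in a range of 1.86e-06 to 0.224. Elsewhere single arrays were high: E2 29 °C replicate 1 at 7.59 (the others 2.63 and 3.00), E2 17 °C replicate 2 at 4.79 (the others 2.16 and 2.89), T1 replicate 3 at 4.80 (the others 2.74 and 2.60) and T5 replicate 3 at 4.62 (the others 3.19 and 2.77). Without E2 29 °C replicate 1 the difference from WT of that group was 0.29 in place of 1.88 (adjusted p = 0.953 and 0.122), in a range that began at 0.0184, and it was called without E2 29 °C replicate 2 or 3 (2.77 and 2.59). These arrays also had the highest medians over all probe sets of their groups, 4.66, 4.03, 4.09 and 3.92, and E2 29 °C replicate 1 had the 3′-biased eIF4a signal. The part of these array features in the nht values was not tested. The sa gene, the testis copy of Taf8, lay between 2.17 and 2.24 on all 33 arrays.

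Most of the somatic relatives of these genes made no call against WT. All 7 somatic TFIID genes listed (Taf1, Taf4, Taf5, Taf6, Taf8, Taf12 and Tbp) were tested, and limma called 0 of the 7 against WT in any of the 9 comparisons, although 10 of the 63 results had an unadjusted p under 0.05. Of all tested genes, 0.557% to 5.68% were called in a given direction in brains and 12.3% to 14.3% in tumours. A count of 0 of 7 is thus no sign of a list that changed less than others. Taf6, the somatic copy of mia, differed from WT by -0.09 to 0.51, where mia differed by 0.36 to 3.81. Taf5, the somatic copy of can, differed by -0.37 to 0.79, and Taf4, that of nht, by -0.43 to 0.35. Taf8, that of sa, differed by -0.68 to 0.28 outside E2 brains at 29 °C. There it differed by -1.30 (adjusted p = 0.109) with replicate 1 the lowest of all 33 arrays and the other arrays of the group at 8.46 and 8.08. Without that array, which had the 3′-biased eIF4a signal, it was -0.08 (adjusted p = 0.986, the highest of a range that began at 0.01).

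Of the dREAM genes, 7 of the 8 listed had a probe set of their own and were tested. The mip120 gene, the somatic relative of tomb, differed from WT by -0.49 to 0.43. The mip130 gene, that of aly, differed by -2.63 ± 0.90 in E2 brains at 29 °C (adjusted p = 0.0584) and by -0.91 to 0.62 elsewhere. In the E2 group replicate 1 read 1.53 and the other arrays 7.64 and 7.58, and without replicate 1 the difference was -0.61 (adjusted p = 0.617, the highest of a range that began at 0.00646). The only calls of this list against WT were E2f2, a repressive E2F, which fell by 1.72 ± 0.49 in E2 brains at 29 °C (adjusted p = 0.0261), and l(3)mbt itself, which rose by 1.45 ± 0.53 in T5 (adjusted p = 0.0364) and by 1.58 ± 0.53 in T10 (adjusted p = 0.0233). Each was 1 of the 7 tested, where 5.08% of all tested genes fell in E2 brains at 29 °C and 12.9% and 12.3% rose in T5 and T10. The E2f2 value rested on E2 29 °C replicate 1, which read 6.14 where the other arrays of the group read 9.23 and 9.08. Without that array it was -0.72 (adjusted p = 0.242, the highest of a range that began at 0.00316), and the call was also lost without any 1 of the 3 WT arrays of that site. The l(3)mbt calls were lost without WT replicate 3 (1.14 in T5, 1.27 in T10). That in T5 was also lost without T5 replicate 1 or 2 or WT replicate 1, and that in T10 without T10 replicate 2 or 3, and over all alternatives their adjusted p ran from 1.95e-06 to 0.212 in T5 and from 2.47e-06 to 0.12 in T10.

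**Figure D4:**
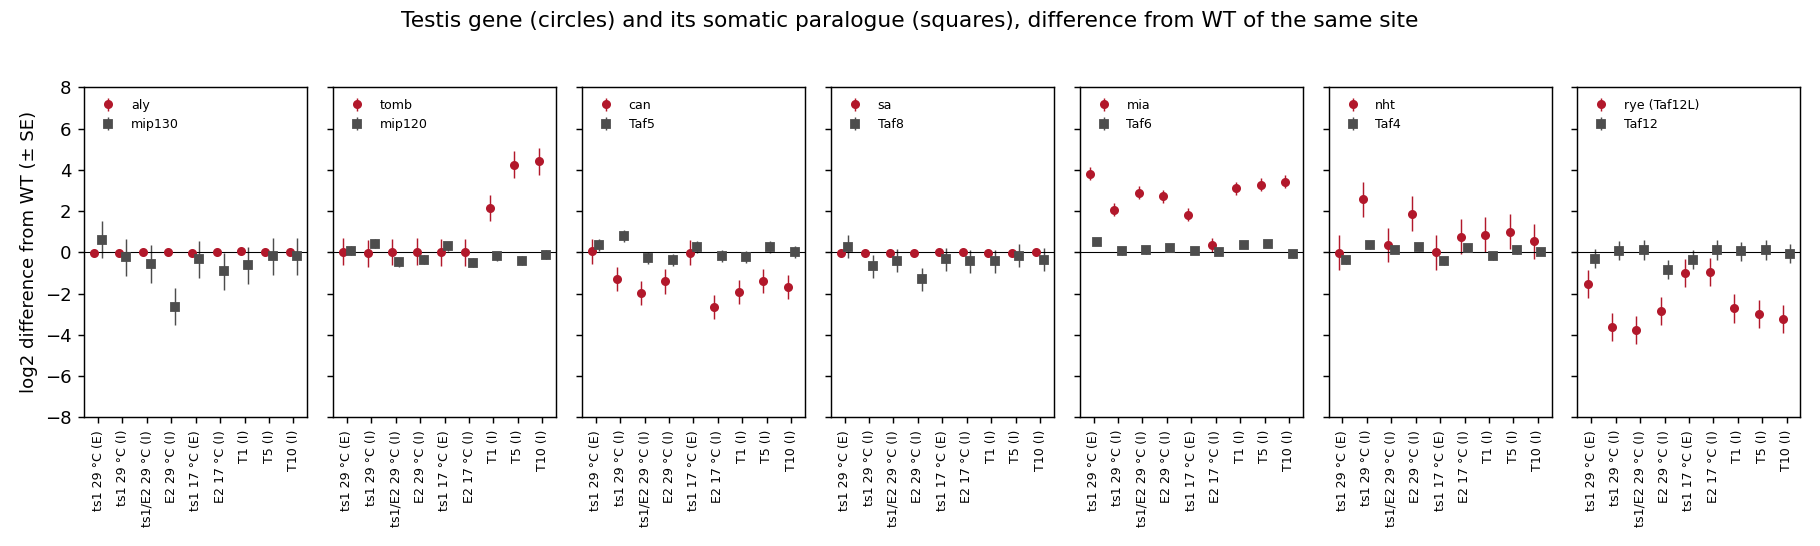
Difference from WT of the same site (vertical axis, log2; bars are ± 1 SE of the fit) of each testis gene beside its somatic relative, for 7 pairs over the mutant and tumour groups (horizontal axis). mia lies at 2.07 to 3.81 in all groups from 29 °C and in tumours while Taf6 lies between -0.09 and 0.51, and tomb leaves 0 only in tumours while mip120 stays between -0.49 and 0.43.

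Beyond the 10 genes, 10 other genes of spermatocyte transcription were listed, all on the array and 6 of them tested. Taf12L, also called rye, encodes the testis copy of Taf12 and went the other way from mia. It read 2.38, 1.64 and 2.16 in ts1 brains at 29 °C at IRB, 2.47, 1.47 and 1.81 in ts1/E2 brains, and 2.34, 4.76 and 1.45 in E2 brains at 29 °C. In T1 it read 2.75, 4.46 and 1.62, in T5 2.40, 2.44 and 3.14, and in T10 3.47, 1.47 and 2.44. All of these 18 arrays lay below every WT array, where Taf12L was between 5.23 and 6.21. It fell by 3.61 ± 0.68 in ts1 brains at 29 °C at IRB (adjusted p = 0.00104), by 3.75 ± 0.68 in ts1/E2 (adjusted p = 0.000572) and by 2.82 ± 0.68 in E2 brains at 29 °C (adjusted p = 0.00951). The fall was 2.72 ± 0.68 in T1 (adjusted p = 0.00276), 3.01 ± 0.68 in T5 (adjusted p = 0.00109) and 3.21 ± 0.68 in T10 (adjusted p = 0.000589). Only the E2 call was lost on leaving out an array, E2 29 °C replicate 1 (-2.56, adjusted p = 0.0538, the highest of a range that began at 0.00029). At EMBL, ts1 brains at 29 °C read 4.95, 4.46 and 2.95 and differed by -1.55 ± 0.68 (adjusted p = 0.178).

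The tbrd-1 gene, a testis bromodomain protein, rose in the tumours. It read 5.63, 6.23 and 7.51 in T1, 6.20, 7.25 and 6.97 in T5, and 7.09, 5.41 and 6.19 in T10, all above 2.88, 4.08 and 4.11 in WT at IRB. The rises were 2.77 ± 0.73 (adjusted p = 0.00431), 3.12 ± 0.73 (adjusted p = 0.00152) and 2.54 ± 0.73 (adjusted p = 0.00851), and the last was lost without T10 replicate 1 or WT replicate 1 (adjusted p up to 0.0544, in a range that began at 8.18e-06). In ts1 brains at 29 °C at IRB tbrd-1 rose by 2.81 ± 0.73 (adjusted p = 0.0144), a call lost without ts1 29 °C replicate 6 or WT replicate 1 (range 4.97e-05 to 0.0962). The other 4 tested genes of the list, mip40, Caf1-55, Nxt1 and E(bx), made no call against WT, as held for most of all tested genes.

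Genes that tMAC and the testis TAFs are known to switch on in the testis were then read as a list of 45, of which 36 had a probe set of their own and 20 passed the low-value filter. Against WT, 5 of the 20 rose in T1 and 1 fell, 5 rose and 1 fell in T5, and 1 rose and 1 fell in T10, beside 13.7% of all tested genes that fell in T5 and shares given above for the others. In brains at 29 °C 1 rose and 1 fell in ts1 at EMBL, 4 rose and 1 fell in ts1 at IRB, 3 rose and 1 fell in ts1/E2, and 4 rose and 1 fell in E2. Of all tested genes, 3.69%, 3.11%, 3.34% and 3.98% rose in these 4 comparisons, and 3.07%, 5.68%, 2.53% and 5.08% fell. At 17 °C 1 of the 20 fell in ts1 brains, where 0.629% of all tested genes fell. In E2 brains 1 rose and 1 fell, against 1.98% and 2.29% of all tested genes. Of the 20, 15 averaged at or below 4 in WT and passed the filter through mutant or tumour arrays, so these counts lend no weight to a shift of the list.

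The counts of rising targets also moved with single arrays. On leaving out 1 array they ran from 3 to 5 in T1, from 1 to 5 in T5, from 1 to 5 in ts1 brains at IRB, from 2 to 5 in ts1/E2 and from 2 to 13 in E2 brains at 29 °C. Over all 36 genes on the array, with no filter, the median difference from WT was 0.01 in T1, 0.08 in T5 and 0.09 in T10, beside -0.01, -0.01 and 0.00 over all 11982 genes. It was -0.01 in ts1 brains at 29 °C at EMBL and 0.21 at IRB, 0.00 in ts1/E2 and 0.44 in E2 at 29 °C, beside -0.01, -0.02, -0.01 and -0.01 over all genes. Without E2 29 °C replicate 1, whose eIF4a signal was 3′-biased, the E2 median was 0.03, and without ts1 29 °C replicate 6 the IRB median was 0.09. In T5 it was 0.02 without T5 replicate 3, and in E2 brains at 17 °C it was 0.14, and 0.01 without E2 17 °C replicate 2.

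The member of this list that rose in every group from 29 °C was TrxT, the testis thioredoxin. It read 11.57, 11.85 and 11.23 in T1, 10.18, 11.42 and 11.62 in T5, 10.61, 8.67 and 9.07 in T10, and 9.99, 9.61 and 9.93 in E2 brains at 29 °C, against 2.54 to 2.92 in WT. The rise was 8.87 ± 0.92 in T1 (adjusted p = 3.08e-08) and 5.98 ± 0.92 in ts1 brains at EMBL (adjusted p = 8.04e-05). At IRB it was 3.02 ± 0.92 (adjusted p = 0.035), a call lost without any 1 of 5 of the 6 arrays (range over alternatives 4.91e-06 to 0.146). The ocn gene, expressed in the male germ line, read 7.15, 7.26 and 6.72 in T1, against 2.18 to 2.20 in WT, and rose by 4.86 ± 0.54 (adjusted p = 1.20e-07). In T10 it read 2.99, 2.27 and 2.75, so that it fell by 4.38 ± 0.54 in T10 relative to T1 (adjusted p = 4.79e-06), where topi and mia made no call. The bol gene, an RNA-binding regulator of meiosis, rose by 2.20 ± 0.57 in ts1/E2 brains (adjusted p = 0.0156), a call lost without ts1/E2 replicate 2 or 3 or WT replicate 1 (range over alternatives 1.93e-06 to 0.129). It also rose in ts1 brains at 29 °C at IRB, in E2 brains at 29 °C, in T1 and in T5. Other targets that rose were ProtA and dj in ts1 brains at 29 °C at IRB, ProtA in E2 brains at 29 °C, Mst77F in T1 and T5, and janB in T5. Single arrays were high in some of these. In E2 brains at 29 °C ProtA read 6.95, 2.58 and 4.64 and bol 8.34, 5.53 and 6.55, each highest on replicate 1. In T5 janB read 4.67, 4.21 and 7.25. Without E2 29 °C replicate 1, 2 of the 20 targets rose in that group. Without T5 replicate 3, 1 rose in T5, and without WT replicate 1, 1 rose in ts1 brains at IRB. The betaTub85D gene rose in E2 brains at 17 °C and was lower in E2 brains at 29 °C than at 17 °C.

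In the opposite direction, Tektin-C, a sperm tail component, was the gene that fell in all 9 comparisons, by 6.65 to 9.40. T5 replicate 1 read 9.25 and the other 26 mutant and tumour arrays between 1.01 and 3.35, against 10.38 to 10.47 in WT. Its probe set was thus low in mutants raised at either temperature.

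**Figure D5:**
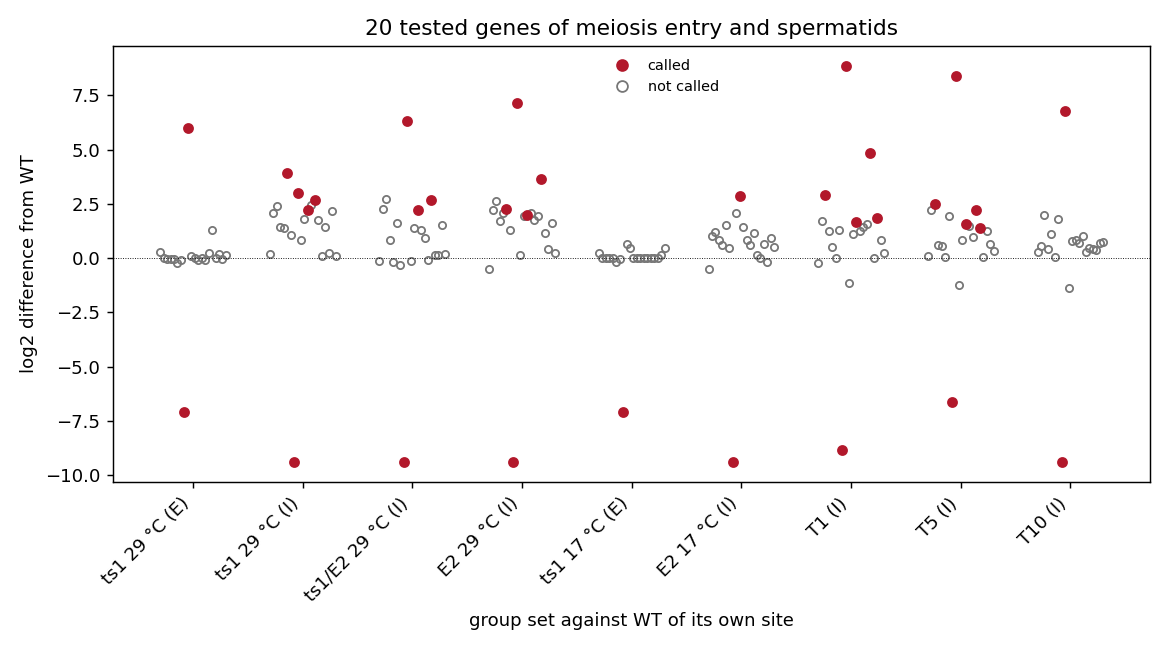
Difference from WT of the same site (vertical axis, log2) of the 20 tested target genes in each mutant and tumour group (horizontal axis); points are genes, red where called. TrxT is the highest point in T1 at 8.87, and Tektin-C the lowest in all groups. The many open points above 0 in E2 brains at 29 °C include the values of replicate 1, without which 2 in place of 4 of the 20 rose.

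Whole brains or host-grown tumours could hold other cells, whose markers were read as lists. Loss of l(3)mbt itself lets brains express germline genes, so a germ cell marker cannot tell germ cells from such expression. Of 8 germ cell and gonad markers, 7 averaged over 4 in T1, with a summed log2 level of 52.9 to 60.6 per array, 7 in T5 (55.4 to 58.1) and 6 in T10 (43.6 to 57.2). In brains at 29 °C the count was 6 in ts1 at EMBL (45.8 to 51.2), 4 in ts1 at IRB (33.1 to 39.8), 7 in ts1/E2 (45.8 to 49.6) and 6 in E2 (44.2 to 47.4). At 17 °C it was 2 in ts1 (29.8 to 31.7) and 3 in E2 (27.1 to 31.9), and in WT it was 1 (26.4 to 27.6). The gonad soma marker tj averaged at or below 4 in every group. Another gonad soma marker, upd1, averaged over 4 in every group except E2 brains at 29 °C, and was the 1 marker over 4 in WT. It rose in T1, T5 and T10 and fell in E2 brains at 29 °C. Of the 7 tested markers, 6 rose in T1, 6 in T5 and 5 in T10, against 12.7%, 12.9% and 12.3% of all tested genes. Most passed the low-value filter through mutant or tumour arrays, so these counts lend no weight to a shift of the list. Of 7 genes listed for host tissue, 2 of them fat body genes that WT brains also showed, 4 averaged over 4 in T1 (summed level 30.1 to 50.8), 2 in T5 (22.5 to 27.5), 2 in T10 (21.4 to 30.0) and 1 or 2 in brains at 29 °C (20.1 to 33.2), against 2 in WT (29.6 to 36.1). These were different genes: in WT the fat body genes Fbp1 and Lsp2, in T10 the yolk protein genes Yp1 and Yp2. The yolk protein genes Yp1, Yp2 and Yp3 rose in T1, and Yp1 and Yp2 in T10, the Yp2 call there being lost without T10 replicate 2 or 3. Fbp1 fell in all 3 tumour groups, in every brain group at 29 °C and in ts1 brains at 17 °C, and Lsp2 fell in T1, T10 and ts1 brains at 29 °C at IRB. The Fbp1 call in ts1 brains at 29 °C at EMBL was lost without ts1 29 °C replicate 2 or WT replicate 5 or 6. That of Lsp2 in T1 was lost without T1 replicate 2 or 3 or WT replicate 1, and that of Lsp2 in ts1 brains without ts1 29 °C replicate 4 or WT replicate 1 or 2. The part of such cells in the levels of the 10 genes was not tested.

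Over the 33 arrays, the genes whose probe sets correlated best with those of the members were found by Pearson's r, and the points share groups and sites, so r is a description. For topi they were CG6790 (0.97), tor (0.968), which encodes the receptor of the embryonic terminal system, and Spn42Dc (0.958). For mia they were tej (0.941) and fs(1)Yb (0.93), both of the piRNA pathway, and RpS5b (0.937), a germline ribosomal protein. For tomb they were Spn42De (0.959), Rcd6 (0.958) and CG42565 (0.955), and for vis sina (0.887), Eip63E (0.886) and KaiR1D (0.875). For can they were CG33642 (0.809), Cyp49a1 (0.802) and CG8072 (0.779), for nht Jig (0.971), CG34342 (0.963) and CG14113 (0.958), and for achi CG5104 (0.747), larp (0.736) and Sam-S (0.71). In the order of group means at IRB, topi was highest in T1 at 10.22 and lowest in WT at 2.26, and the neighbouring groups whose arrays did not overlap were ts1 at 29 °C and E2 at 17 °C, and T5 and E2 at 29 °C. The neighbours that did not overlap at IRB were ts1 at 29 °C and E2 at 17 °C in mia, T10 and WT in vis, and T1 and E2 at 29 °C in tomb, and there were none in can. At EMBL ts1 at 29 °C lay above ts1 at 17 °C in topi and mia and above WT in vis, the next group below in each, and ts1 at 17 °C lay above WT in mia.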

How the data were processed

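The authors deposited log2 expression values, normalised with GCRMA per the submitters' processing notes, for 33 Affymetrix arrays (24 at IRB, 9 at EMBL) of 18952 probe sets; the version of GCRMA is not given in the sources used here. Samples were grouped by the labels into 9 groups. The 183 control probe sets were left out, 13647 probe sets were annotated to 1 gene, 402 to several and 4720 to none. Each gene took its probe set with the highest mean, and genes over 4 on at least 3 arrays were tested. One linear model of the 11 combinations of group and site was fitted with limma 3.58.1 in R 4.3.3 (lmFit and eBayes, 22 residual degrees of freedom), with 18 comparisons, each against arrays of the same site, and Benjamini-Hochberg adjustment over the tested genes. The script was tested on simulated data. The number of arrays limits the precision.

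The members and lists were chosen with earlier results of these data known. All 10 genes were named, with the 3 genes most correlated with each tested one. Called genes of each list were drawn mostly from the up to 4 with the largest difference in a comparison, and not all of these are named. The somatic relatives were added, and the values of l(3)mbt are given as the mutated gene. Replicate numbers were checked as pairs from the array titles, and 0 of 36 pairs of combinations had all correlations of deviations over 0.1, so no pairing was used. The alternatives were an additive site term, no filter, a filter of 5, trended and robust moderation, centred arrays, the mean of probe sets, no minimum difference, array weights, leaving out 5 arrays or each array in turn, the replicate block and, added after seeing the data, fits of 1 site alone, the same settings for mip130 and Taf8 in E2 brains at 29 °C, and the medians of the target list with no filter and without each array.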

Additional observations from a re-analysis of the deposited data

Results flagged for a closer look

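Among 22 combinations of gene and group examined for a single array far from the others, 2 had one, and chance alone does so in about 1 in 20. Only WT and ts1 29 °C, with 6 arrays each over both sites, were examined. The groups of 3 arrays were too small for this search, so single high arrays there, such as those of nht, were not screened. The comr value of ts1 29 °C replicate 6 was 3.28, with the other arrays of the group between 2.23 and 2.39, and the sa value of WT replicate 4 was 2.17, with the others between 2.19 and 2.20; both are near background.

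The members and the lists of targets, other spermatocyte genes and germ cell and gonad markers were searched for differences between sites or alleles. Among them the rise in ts1 brains at 29 °C differed between the sites (IRB minus EMBL) for 6 genes: vis by 3.49, mia by -1.73, the protamine gene ProtA by 4.16, and the germline genes nanos by -4.67, bgcn by -3.90 and zpg by -4.13. Of all 8264 tested genes, 1.09% were called higher and 2.59% lower in this comparison. At 17 °C the difference from WT of vis in E2 brains exceeded that in ts1 brains by 5.62.

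The probe set shared by achi and vis, which none of the comparisons between genes used, was higher than in WT by 2.96 in ts1 brains at 29 °C at EMBL, 1.25 at IRB, 1.97 in ts1/E2 brains, 1.98 in T1, 2.83 in T5 and 2.76 in T10.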

How the results depend on the processing

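Of 42 calls of the tested members, 29 held when any 1 array was left out and 30 under every other setting; no difference changed sign with a call. The number of members called moved as follows. With array weights (estimated gene by gene) it was 5 in ts1 brains at 29 °C at IRB (3 in the main analysis), 1 for the temperature difference between alleles (0), 4 for the site difference (2), 3 for E2 minus ts1 at 17 °C (1), 4 for ts1/E2 minus ts1 (0), 5 for T1 minus ts1 (3) and 0 for T10 minus T1 (1). Without the 5 arrays that stood apart it was 5 in ts1 brains at 29 °C at IRB, 2 for E2 minus ts1 at 17 °C and 2 for ts1/E2 minus ts1. With centred arrays it was 0 in ts1 brains at 17 °C (1), 1 for ts1 at 29 °C minus 17 °C (2), 0 for the site difference, 2 for E2 minus ts1 at 17 °C and 2 for T10 minus T1. With an additive site term it was 0 in ts1 brains at 17 °C and 0 for E2 minus ts1 at 17 °C. A filter of 5, which removed can, left 1 in E2 brains at 17 °C (2), and no filter left 1 for the site difference. With the replicate block, and in IRB arrays alone, it was 0 for T10 minus T1; the block changed no other count by over 1.5 times, and it could not be fitted where groups carry numbers 4 to 6. Leaving out 1 array gave ranges of 2 to 2 in ts1 at 29 °C at EMBL, 2 to 3 at IRB, 3 to 4 in ts1/E2, 3 to 4 in E2 at 29 °C, 1 to 1 in ts1 at 17 °C, 1 to 2 in E2 at 17 °C, 3 to 5 in T1, 4 to 4 in T5, 5 to 6 in T10, 1 to 2 and 2 to 3 for temperature in ts1 and E2, 0 to 0 for its difference, 0 to 2 for the site difference, 1 to 1 for E2 minus ts1 at 17 °C, 0 to 0 and 0 to 2 for ts1/E2 minus E2 and minus ts1, 1 to 4 for T1 minus ts1 and 0 to 1 for T10 minus T1. The causes were not tested. Over all tested genes, the number called ran from 350 to 1094 in ts1 brains at 29 °C at EMBL (559 in the main analysis), from 508 to 1596 at IRB (726), from 401 to 1469 in ts1/E2 (485), from 485 to 1237 in E2 at 29 °C (749), from 37 to 274 in ts1 at 17 °C (98), from 210 to 987 in E2 at 17 °C (353), from 94 to 590 and 377 to 738 for temperature in ts1 (187) and E2 (539), from 163 to 2134 for the site difference (304), from 15 to 95 for the temperature difference between alleles (31), from 33 to 890 for E2 minus ts1 at 17 °C (100), from 3 to 19 and 265 to 1170 for ts1/E2 minus E2 (9) and minus ts1 (529), and from 386 to 856 for T10 minus T1 (488). Values near 2.3 were taken as background, which limits fold sizes for topi, tomb, vis and nht.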
